A study of Mus musculus with 44 samples.

Results

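Short-overlap joins at AsiSI motifs are DNA junctions in which the last bases of one broken end and the first bases of the other are the same 1 to 5 bases, so that these bases cannot be assigned to either end. They came from high-throughput genome-wide translocation sequencing (HTGTS), in which each read runs out of a known broken end, the bait, into whatever sequence was joined there, the prey. Members were selected on the deposited overlap and on position: a join was a member when its prey lay more than 10 kb from the bait, under 500 bp from one of the 1109 listed AsiSI motifs, and overlapped the bait on the read by 1 to 5 bases. The 26 libraries of AsiSI-MEFs held 29533 members among 78573 joins under 500 bp from a motif (called proximal joins here) and 123783 deposited junctions, and the series held 148726 junctions in 32 HTGTS libraries. Of the members, 13204 had an overlap of 1 base, 8606 of 2, 3727 of 3, 2370 of 4 and 1626 of 5. The overlap chose the members, so its lengths are described with no test throughout.

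AsiSI-MEFs are C57BL/6 mouse embryonic fibroblasts, labelled wild type, that carry an inducible AsiSI fused to an oestrogen receptor domain. The cells of all 26 libraries received 3 µg/ml doxycycline for 24 h, which induces the enzyme, and 1 µg/ml 4-hydroxytamoxifen (4OHT) in the last 6 h, which moves it into the nucleus. Cells were cotreated with the Arp2/3 inhibitor CK-666 at 100 µM (6 libraries) or DMSO (6), with the N-WASP inhibitor wiskostatin at 3 µM (2) or DMSO (2), or with the DNA-PKcs inhibitor NU7441 at 10 µM, from 1 h before 4OHT (3), or DMSO (3). A further 2 libraries came from cells transfected with actin R62D-NLS, an actin that does not polymerize and is sent to the nucleus, 24 h before AsiSI was induced, and 2 from cells given empty vector. The background came from wild-type MEFs without AsiSI, in which Cas9 cut the bait, given DMSO or CK-666 (3 libraries each). The labels do not say which libraries came from separate cultures, so the tests measure the spread between libraries.

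When both strands of a chromosome break, classical non-homologous end joining (NHEJ) ligates the ends with little processing, with DNA-PKcs holding and licensing them. Alternative end joining instead resects the ends and anneals short complementary stretches, called microhomologies, before ligation. A short overlap can also fall at a join by chance or through the annealing of overhangs, so overlap alone does not name the pathway of a single join.

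AsiSI cuts the palindrome of 8 bases shown in capitals in the bait sequence, after motif base 5 on the strand read here, and leaves 3′ overhangs of 2 bases, motif bases 4 and 5. Motif bases are numbered along the read from 1, and bases before the motif count down through 0. An uncut-back bait therefore ends at base 5 and an uncut-back prey starts at base 4. The bait motif lies at chr2:13271317-13271324 (mm10) in an untranslated region of Rsu1 (minus strand), whose annotated start is 94 bp away. The bait, with the motif in capitals, is shown because its bases decide which overlaps it can form:
Bait: acacaccctgtcccaGCGATCGCgcaggcg

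The joins below are the most widely shared one of each of the 6 commonest combinations of bait end and prey start, written from the reference in the direction of the read with the shared bases in capitals. They are shown because the same bases recurred at many motifs.
TC at Romo1: aggaacacaccctgTCgctcagctcgacgt
T at Nup214: gcaggaacacacccTcgcgaccctgcgaac
A at Romo1, bait end at base 0: acacaccctgtcccAtcgctcagctcgacg
CG at Dnmt3b: acaccctgtcccagCGcggcgccgcgctac
A at Romo1, bait end at base -10: cgcagcaggaacacAtcgctcagctcgacg
C at Nup214: cagcaggaacacacCgctcgccccacagag

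Libraries differed widely in size. Deposited junctions per AsiSI-MEF library ranged from 362 to 18428 (median 4748) and members from 77 to 5595 (median 868.5). Members made up 7.47% to 41.8% of the junctions more than 10 kb from the bait in these libraries (median 23.8%), and 0.0317% to 1.54% in the 6 Cas9 libraries (median 0.60%, 138 joins in all). The 26 libraries fell into 6 sequencing runs by their read names, and both libraries of each treated and control pair shared a run. Only 0.277% of the proximal read sequences occurred in more than 1 library. The shared bases were the same in the bait and the prey reference for 98.7% of members, and within a library 97.1% ± 1.52 (SD, n = 26) of members were the only or first copy of their join.

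Short overlaps were the largest class of proximal joins in the pooled data, ahead of 22791 joins with an overlap of at least 6 bases, 16866 blunt joins (0 shared bases) and 9383 joins with inserted bases. This order rested on the larger libraries, since joins with an overlap of at least 6 bases outnumbered members in 15 of the 26 libraries and in 5 of the 11 given DMSO. In the 11 libraries given DMSO, members were 35.1% ± 6.66 (SD, n = 11) of proximal joins, with a lowest library at 26.4%, a median of 34.0% and a highest at 47.9%. The 2 DMSO libraries of the third run stood highest, at 44.0% and 47.9%, and the other 9 lay between 26.4% and 40.3%. The overlap of at least 6 bases moved the other way there, at 17.6% ± 4.32 (n = 2) of proximal joins in that run against 33.4% ± 10.9 over all 11 libraries, and what part the run or library size has in this was not tested.

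Among members of the DMSO libraries, 1 shared base was the commonest length in every library, at 46.8% ± 2.88 (lowest 39.7%, median 47.0%, highest 50.1%). Overlaps of 2 bases followed with 28.7% ± 4.03, then 3 bases with 11.2% ± 2.00, 4 bases with 8.16% ± 2.10 and 5 bases with 5.18% ± 1.10 (SD, n = 11 for each). The order of the lengths was thus steep at the short end and shallow at the long end, where the ranges of 3 and 4 bases (7.57% to 14.1% and 4.86% to 11.02%) and of 4 and 5 bases (4.86% to 11.02% and 3.41% to 6.72%) overlapped between libraries. At the edges of the rule, 16866 proximal joins had 0 and 1816 had 6 shared bases, and 361 short overlaps lay 400 to 499 bp from a motif against 333 at 500 to 599 bp. Most members lay far inside that limit, with 25808 under 50 bp from the motif.

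**Figure D1:**
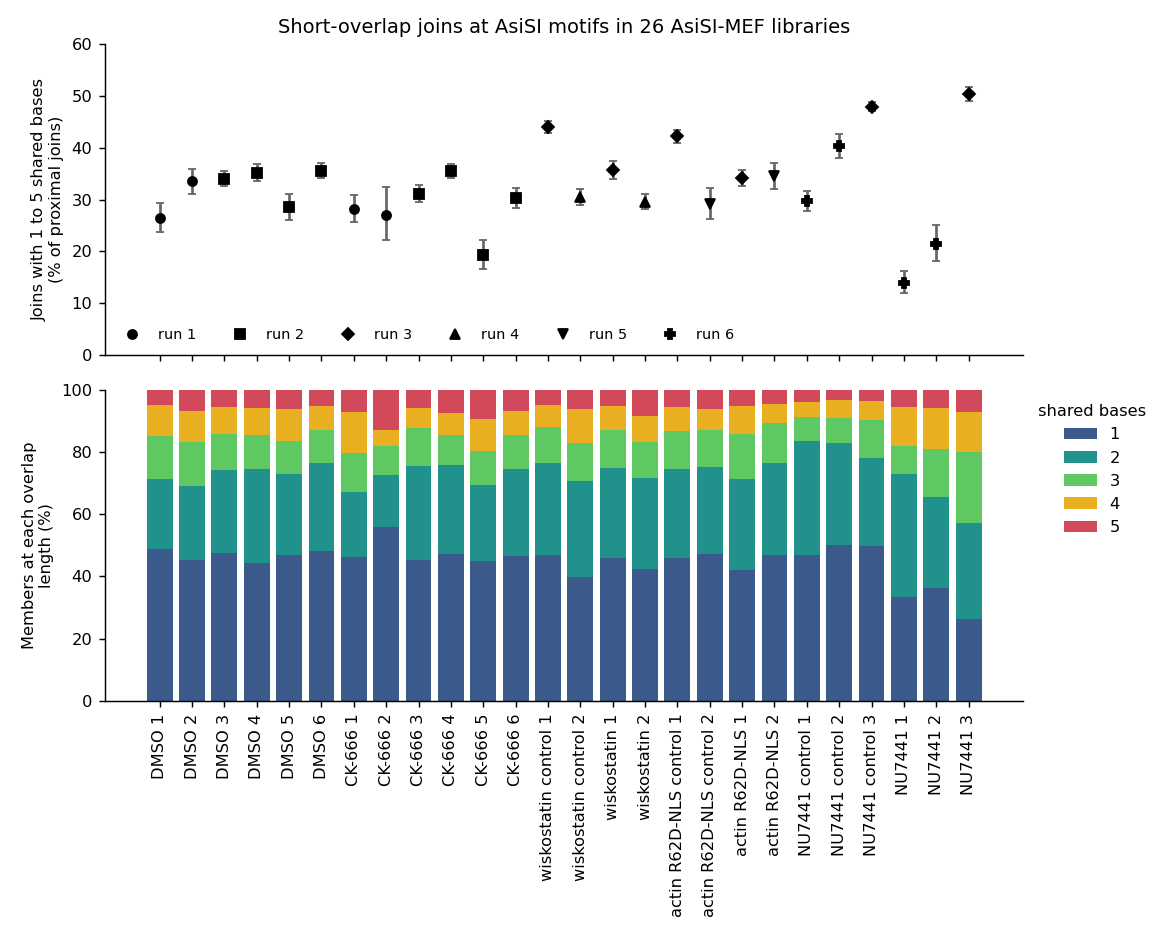
Short-overlap joins in each of the 26 AsiSI-MEF libraries. The upper panel plots members as a percentage of proximal joins with 95% Wilson intervals, which cover counting error only, and marker shape gives the sequencing run. The lower panel stacks the percentage of members at each overlap length. DMSO libraries sit between 26.4% and 47.9%, and the 3 NU7441 libraries have the smallest blocks for 1 shared base (26.2% to 36.2%).

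Ends joined at random positions also share bases by chance, and the flanks of AsiSI motifs, rich in G and C, raise that chance. For each of the 568 motif ends with a blunt or short-overlap join in the DMSO libraries, all 441 pairs of ends that lost 0 to 20 bases each were enumerated on the reference, and the overlap an aligner would report was recorded. Observed joins within the same window numbered 19955, and 72.9% of members lay in it. Blunt joins were 40.3% ± 7.18 (SD, n = 11) of these joins against 53.4% of enumerated pairs. A single shared base was found in 31.2% ± 5.17 against 30.5%, a ratio of 1.02 ± 0.169, so single-base overlaps were as frequent as the enumeration gave within the spread of libraries. An overlap of 2 bases was found in 18.4% ± 2.07 against 11.1% (ratio 1.66 ± 0.187), and every library lay above the enumerated share (ratios 1.41 to 1.99).

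In this enumeration the ratio was higher again at 4 and 5 bases but not at 3. An overlap of 3 bases gave a ratio of 1.28 ± 0.285 (4.59% ± 1.02 against 3.58%), with libraries on both sides of 1 (0.714 to 1.66). An overlap of 4 bases gave 2.88 ± 0.679 (3.23% ± 0.761 against 1.12%) and 5 gave 6.71 ± 1.58 (2.31% ± 0.544 against 0.344%), and each of the 11 libraries was above 1 for both. The ratios depend on the ends assumed. At 1 base the ratio was 0.777 ± 0.109 for ends that lost at most 10 bases and 1.70 ± 0.281 when ends were weighted by the losses of blunt joins. That weighting gave 2.54 ± 0.288 at 2 bases, 2.96 ± 0.656 at 3, 6.24 ± 1.47 at 4 and 18.2 ± 4.29 at 5. With ends counted equally but without the 6 commonest end combinations, described below, the ratio was 1.20 ± 0.260 at 2 bases and 1.57 ± 0.344 at 3. The order of 2 and 3 bases was thus not fixed. With ends counted equally, the ratio at 5 bases fell from 6.71 to 3.08 ± 1.02 without joins in which bait and prey run through the motif in register, also described below. The enumeration cannot give such joins at 4 bases either, so the ratio there includes them on the observed side only.

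**Figure D2:**
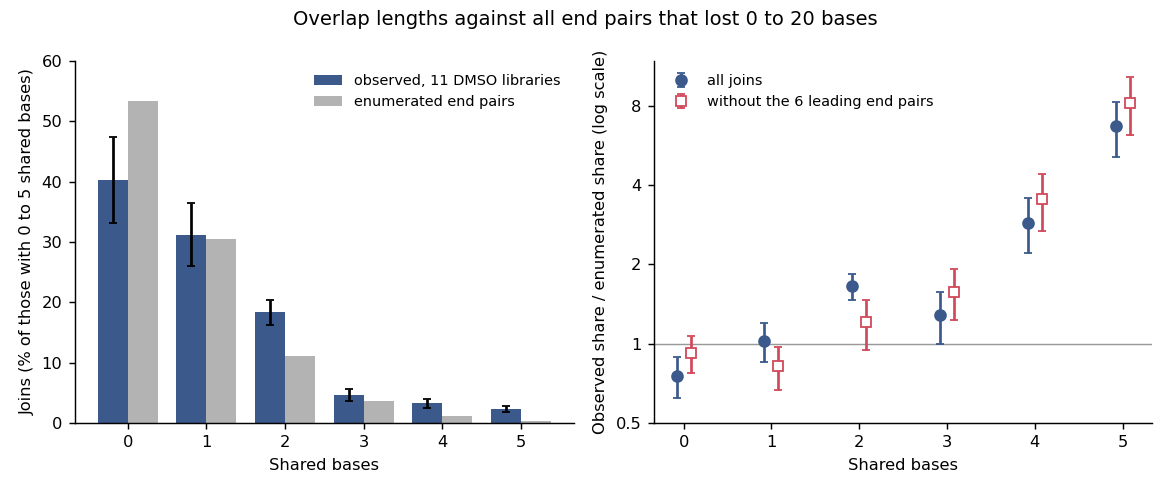
Overlap lengths against all enumerated end pairs in 11 DMSO libraries. Left, bars give the percentage of joins at each length from 0 to 5 shared bases, observed (mean and SD over libraries) and enumerated. Right, the ratio of the shares on a log scale (mean and SD), for all joins and with the 6 commonest end combinations taken out of both sides, where 2 shared bases fall from 1.66 to 1.20 and 1 shared base from 1.02 to 0.821.

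The joins were concentrated on a few combinations of ends. Of 3735 combinations of overlap, last bait base and first prey base in the DMSO libraries, 6 held 3821 members (23.4%), and in all 6 the shared bases were motif bases 4 to 7 of the prey (A and T of the overhang, then C and G), which every motif offers. The commonest was TC, with the bait cut back to base -3 and the prey starting at base 5. It made up 6.34% ± 1.33 (SD, n = 11) of members, between 4.52% and 8.82% in single libraries, and occurred at 211 motifs. In the enumeration this combination held 0.686% of end pairs. It held 5.29% ± 1.35 of the observed joins with 0 to 5 shared bases, a ratio of 7.71. The enumeration counts all losses in its window equally. In blunt joins, however, 58.4% ± 7.33 (SD, n = 11) of prey started at motif bases 4 to 6. The prey of all 6 combinations starts there as well. Their ratios to the enumerated share thus include where prey ends lie, and the part of the shared bases was not tested.

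Single prey bases, A and T of the overhang and the C after it, met several places in the bait. The prey T at base 5 paired with the bait T at base -6 in 4.43% ± 0.971 of members (764 joins at 212 motifs, 8.0 times the enumerated share). The prey A at base 4 paired with the bait A at base 0, beside the motif, in 4.60% ± 1.43 (652 joins, 8.13 times) and with the bait A at base -10 in 3.68% ± 1.19 (528 joins, 6.87 times). The prey C at base 6 paired with the bait C at base -8 in 1.80% ± 0.627 (282 joins, 3.37 times). The same C met the bait bases at -9, -7, -2 and -1, which offer the same letter, in 0.799% ± 0.446, 0.517% ± 0.25, 0.657% ± 0.286 and 0.668% ± 0.333 of members, at 0.938 to 1.49 times the enumerated share. The bait positions that recurred were thus unevenly used even where the shared letter was the same.

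A different geometry held for CG, with the bait kept to base 3 and the prey starting at base 6. Both shared bases then lie within the motif on either side. This combination made up 4.59% ± 3.21 of members (5.14 times the enumerated share) and varied most between libraries, from 1.66% to 13.4%. The highest value was that of the first NU7441 control library. Its neighbours with GC (bait to base 2, prey from base 7; 1.31% ± 0.638) and GCG (bait to base 3, prey from base 7; 0.966% ± 0.408) were rarer, and each was missing from 1 of the 11 libraries. The letters of these combinations come from the motif and from this bait alone, so another bait would offer other combinations.

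**Figure D3:**
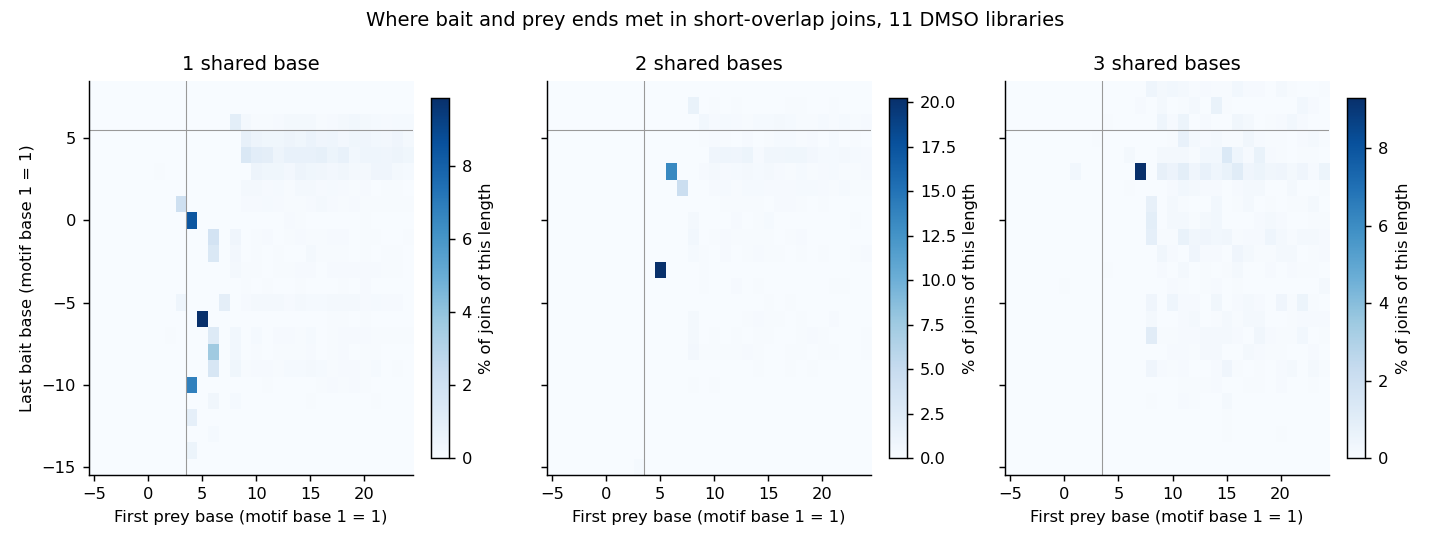
Where bait and prey ends met in members with 1, 2 and 3 shared bases, pooled over 11 DMSO libraries. The vertical axis gives the last bait base and the horizontal axis the first prey base, in bases counted from the start of the motif, and colour gives the percentage of joins of that length. Thin lines mark ends that lost no base. A few cells stand out for 1 and 2 shared bases, among them the TC combination with 20.3% of pooled 2-base joins, and 3 shared bases are spread over more prey starts.

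The shared letters followed the same pattern. Among 1-base overlaps in the enumeration window, A made up 40.4% ± 5.19 (SD, n = 11) against 16.9% enumerated and T 20.1% ± 3.14 against 6.67%, whereas C was 25.8% ± 3.21 against 59.9%. With 2 bases, TC (34.0% ± 7.45 against 11.2%) and CG (27.0% ± 10.5 against 12.5%) exceeded the enumerated share, and GA followed with 10.9% ± 2.84 against 7.52%. CC, the commonest pair in the enumeration at 28.4%, was found in 8.65% ± 5.66. Over all lengths, 62.7% ± 2.60 of shared bases were G or C, against 75.2% enumerated. The enumerated shares of letters also count all losses equally, and what part the position of the ends has in these differences was not tested.

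With 3 bases the leading letters were GCG (33.4% ± 10.9 against 15.8%), the start of the bait motif. CCC (9.34% ± 6.61 against 20.2%) and CGA (7.35% ± 4.15 against 3.13%) came next. With 4 bases GCGA led (39.95% ± 10.1 against 12.03%), before CAGC (7.63% ± 5.65 against 9.17%) and AGCG (8.81% ± 4.93 against 6.29%). With 5 bases GCGAT made up 50.7% ± 12.2 against 2.42% enumerated, followed by CGCGC (7.19% ± 5.32 against 4.38%), CCAGC (6.02% ± 6.26 against 6.86%), CAGCG (4.77% ± 3.99 against 13.1%) and AGCGA (4.36% ± 4.90 against 0.130%). Of the 196 GCGAT joins, 174 shared the same motif bases of bait and prey. The enumeration cannot give these, since such ends match over all 8 motif bases and fall outside its 0 to 5. The excess of GCGAT was thus partly set in advance. The letters that led at 3, 4 and 5 bases spell the first 3, 4 and 5 bases of the bait motif, and only GCGAT reaches the cut.

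Where the shared bases lay changed with length. For 1 base, 53.9% ± 4.76 lay in the bait flank and the prey motif, and 9.88% ± 3.92 in both flanks, against 29.4% and 50.4% of enumerated pairs. For 2 bases the shares in the prey motif were 25.2% ± 10.4 with the bait motif and 29.3% ± 7.87 with the bait flank, against 10.3% and 8.26%. For 3 bases 57.9% ± 15.8 joined the bait motif to the prey flank (24.7% enumerated) and 41.3% ± 16.0 joined both flanks (75.3%). For 4 bases the bait motif met the prey flank in 35.8% ± 7.99 (17.6% enumerated). At every length, overlaps between both flanks were below the enumerated share, and those that used the bait motif with a prey flank were above it. These enumerated shares count all losses equally too, and the part of the position of the ends was not tested.

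Some of the 4- and 5-base members were joins through the motif itself. A join is in register when the bait and prey alignments meet at the same motif base. These made up 29.8% ± 8.52 of 5-base members, 8.73% ± 4.98 of 4-base members, 0.321% ± 0.625 of 3-base members and none of the 1- and 2-base members in the DMSO libraries. The leading form was GCGAT with the bait to base 5 and the prey from base 1 (174 joins at 81 motifs, 1.31% ± 0.502 of members). In a full ligation of uncut-back ends all 8 motif bases are shared, which puts the join outside the rule. Why members in register shared fewer bases was not tested. The shared bases were the same in the bait and the prey reference in 84.8% of 5-base, 93.6% of 4-base and 98.3% of 3-base members, and in 100% of 1- and 2-base members.

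Loss of bases was measured at each end from its uncut-back position, with the shared bases counted as kept by both ends, and a negative value means that shared bases or prey reach past the cut. The bases lost in all take the shared bases off 1 end. Members of the DMSO libraries had a median of 11.9 ± 1.81 (SD, n = 11) bases lost in all per library (lowest 10, median 11, highest 16), and blunt joins 6.95 ± 2.45 (4, 7 and 11). The difference was 4.95 ± 1.19 bases and positive in 11 of 11 libraries (exact sign-flip test over libraries, 2-sided p = 0.000977, adjusted p = 0.00488 over 5 measures). This p is the smallest that 11 libraries can give. The rule sets part of this difference, since the shared bases are counted in it, and without them it was 3.32 ± 1.45 bases (exact test, adjusted p = 0.00488). The mean difference of the 5 runs lay between 4 and 6 bases, and single libraries between 3 and 7.

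Of the single ends, only bait loss passed the test. Median bait loss was 3.64 ± 1.21 bases in members and 2 in blunt joins of every library, a difference of 1.64 ± 1.21 (higher in 9 libraries and equal in 2; exact p = 0.00391, adjusted p = 0.00977). Median prey loss was 3.45 ± 2.34 bases against 2, a difference of 1.45 ± 2.34 that did not pass (higher in 6, lower in 1, equal in 4; exact p = 0.0781, adjusted p = 0.13). With the shared bases counted to neither end this difference was 3.45 bases (exact test, adjusted p = 0.00163). The run means of the prey difference ranged from -0.5 to 5.5 bases, highest in the third run, and single libraries from -1 to 7. Means in place of medians turned the difference in bases lost in all to -2.69 (exact test, adjusted p = 0.0781) and that in prey loss to -5.72 (adjusted p = 0.00732). The prey losses had a long negative tail, with a pooled 5th percentile from -33 bases (1 shared base) to -101.6 (5 shared bases).

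Bait and prey losses of members could not be compared over the same range. The bait alignment has to reach past the nested primer, and the largest bait loss among members was 21 bases, whereas prey could lose up to the limit of the rule. Median bait loss exceeded median prey loss by 0.182 ± 2.64 bases (higher in 4 libraries, lower in 4, equal in 3; exact sign-flip p = 0.914). With prey restricted to losses of at most 20 bases, bait loss was higher by 1.36 bases (exact p = 0.0156). With prey restricted to that which reads away from its cut the difference was -1.36 (exact p = 0.205), and the sign also turned without DMSO library 1 (-0.3) or 2 (-0.1), so no order of the ends was fixed by these data.

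Losses differed between overlap lengths. Shared bases count as kept by the bait, so a longer overlap lowers the bait loss by the counting alone, which sets part of its order over lengths. By this count single-base members lost most from the bait, with a median of 5.55 ± 1.69 bases, and 34.0% ± 7.65 of them lost more than 10. For 2, 3, 4 and 5 bases the median bait loss was 3.27 ± 1.62, 2.18 ± 0.405, 2.00 ± 0.742 and 0.682 ± 0.956, and more than 10 bases were lost in 8.45% ± 4.14, 12.6% ± 2.73, 6.74% ± 5.06 and 5.56% ± 4.06. The bait profile of 1-base members had peaks at 1, 5, 11 and 15 bases lost, and that of 2-base members at 2 and 8. On the prey side, 40.5% ± 4.96 of 1-base and 37.8% ± 5.94 of 2-base members started at motif bases 4 to 6, against 0.380% ± 0.478 of 3-base, 3.03% ± 2.12 of 4-base and 2.34% ± 2.09 of 5-base members. In the enumeration, however, 0% of overlaps of 3, 4 or 5 bases lay within the prey motif. The near absence of such starts at 3 bases was thus set by the sequences. Blunt joins stood at 58.4% ± 7.33.

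Median bases lost in all were 14.2 ± 1.17 for 1 shared base and 11.2 ± 1.40 for 2, a difference of -3.05 ± 1.19 that was negative in 11 of 11 libraries (exact sign-flip test, adjusted p = 0.00195 over 4 comparisons). For 5 bases the median was 1.50 ± 8.54, a difference of -12.7 ± 8.80 and lower in 11 of 11 (exact test, adjusted p = 0.00195), and for 4 bases 0.50 ± 13.9, a difference of -13.7 ± 14.01 and lower in 9 of 11 (adjusted p = 0.00781). For 3 bases it was 12.5 ± 4.82, and the difference of -1.77 ± 4.46 did not pass (lower in 8 of 11, exact test, adjusted p = 0.23), and was -3.77 with the shared bases left out (exact test, adjusted p = 0.0293). These orders at 3 and 4 bases rested on prey that read toward its cut. Over prey reading away from it, medians for 1 to 5 bases were 15 ± 1.10, 11.6 ± 1.59, 19.8 ± 4.48, 15.1 ± 4.22 and 6.82 ± 6.78, so that 3-base members lost 4.77 bases more than 1-base members, their 2 further shared bases included, (exact test, adjusted p = 0.00586) and 4-base members differed by 0.136 (adjusted p = 0.942). The sequences offered 3-base overlaps no place within the prey motif, which sets part of the former difference.

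**Figure D4:**
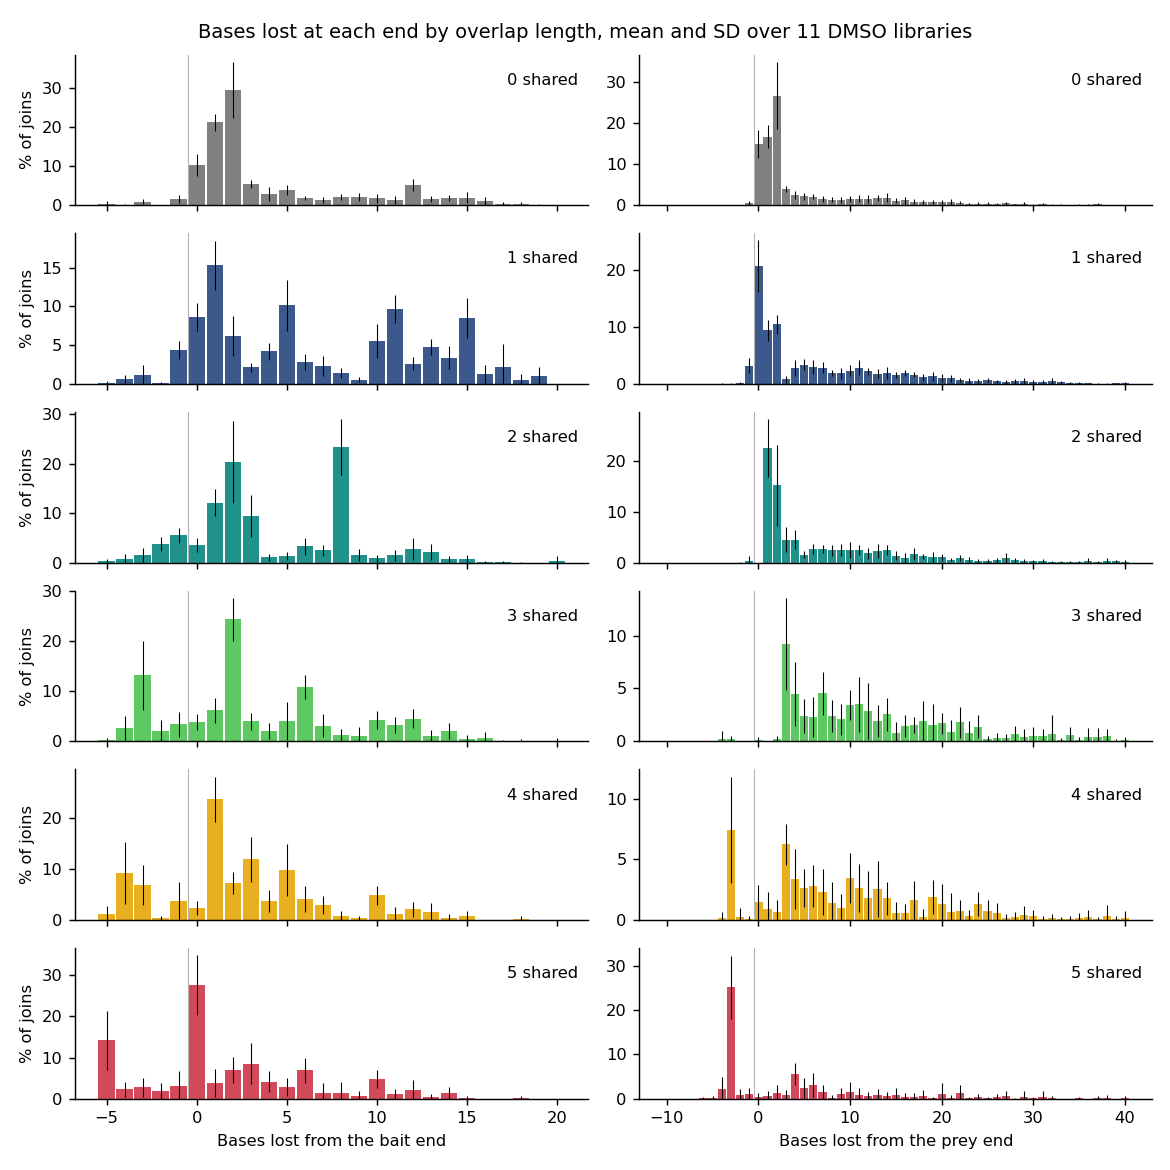
Bases lost from the bait end (left) and the prey end (right) in joins with 0 to 5 shared bases, as mean percentage of joins with SD over 11 DMSO libraries. Shared bases count as kept by both ends, values left of the thin line at 0 reach past the cut, and prey losses outside -10 to 40 are not drawn. Joins with 1 shared base have separate peaks at 1, 5, 11 and 15 bait bases, and 5-base joins peak at 0 bait bases and -3 prey bases.

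Prey of members read in both directions about equally often. The prey read to the right, in the direction of rising coordinates, in 50.7% ± 2.35 (SD, n = 11) of members (46.4% to 55.1%), against 51.5% ± 1.83 of blunt joins, a difference of -0.768 ± 2.44 percentage points (lower in 9 of 11; exact sign-flip p = 0.31, adjusted p = 0.343). This share is called the right side below, though prey that reads right toward its own cut lies left of its motif. By length, 1 to 5 bases, prey read to the right in 50.4% ± 2.70, 50.7% ± 3.15, 51.0% ± 4.28, 48.4% ± 5.28 and 56.3% ± 11.5. On chromosome 2, which holds the bait, 4975 members of the DMSO libraries lay beyond the break on the side away from the primer, where 78 motifs stand, and 81 on the primer side, where 5 stand. Of the former, 50.8% ± 6.16 read to the right, which with this bait is the orientation of a deletion, and the others had that of an inversion. On other chromosomes 50.7% ± 2.24 of 11250 members read to the right.

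Chromosome 2 held 32.7% ± 2.61 of members and 34.4% ± 4.94 of blunt joins, a difference of -1.71 ± 5.37 percentage points (lower in 8 of 11; exact p = 0.343, adjusted p = 0.343). By length it held 31.9% ± 3.28 of members with 1 base, 30.9% ± 3.10 with 2, 34.1% ± 5.89 with 3, 39.3% ± 7.67 with 4 and 36.6% ± 7.76 with 5. The lengths thus overlapped in their libraries.

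Not all prey read away from its own cut. Prey read away in 85.5% ± 6.91 of members (73.4% to 94.5%), and the rest started inside the flank and read toward the motif. Reading away held for 92.9% ± 3.39 of members with 1 base, 90.6% ± 5.09 with 2, 70.2% ± 14.6 with 3, 61.5% ± 15.2 with 4 and 64.9% ± 12.4 with 5, against 96.4% ± 1.80 of blunt joins. Over the 26 libraries 3772 members read toward the cut, from a median of 55 bases before the motif. Of these, 734 stopped exactly at motif base 8, 1076 at bases 1 to 7, 1616 before the motif and 346 ran past it.

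In some of these reads the bait came back after the prey. The letters GATCGCTGGGA, motif bases 3 to 8 followed by the reverse complement of the bait flank, stood at or after the end of the prey in 521 of the 3772 members that read toward the cut (13.8%) and in 1 of 25761 that read away. They followed in 358 of the 734 members whose prey stopped at motif base 8. Such a read holds bait, a short stretch of prey ending at its motif, and then the bait flank in the opposite direction. Reads too short to cover the 11 letters were counted as lacking them. The share among toward-reading members was 12.2% with 1 base, 9.28% with 2, 12.7% with 3, 17.2% with 4 and 20.8% with 5, as pooled values without a test, and long-overlap joins had 22.9% of 1042 and blunt joins 1.99% of 552.

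Members occurred at 313 of the 1108 motifs other than the bait, and 25.6% of those in the DMSO libraries fell at 10 motifs, given here in the order of their members pooled over libraries. The first was chr2:156144260-156144267 in an untranslated region of Romo1, which codes for a mitochondrial membrane protein, 78 bp from the start of Nfs1, a cysteine desulfurase of iron-sulfur cluster assembly. It held 660 members, 5.42% ± 1.87 (SD, n = 11) of those in a library. Next came chr2:113847994-113848001 in a coding exon of Arhgap11a (543 members), chr2:31974701-31974708 in an intron of Nup214, a nucleoporin (529), chr2:20968930-20968937, intergenic and 53 bp from the start of Arhgap21 (441), and chr2:153649703-153649710 in an untranslated region of the DNA methyltransferase gene Dnmt3b and an intron of Dnmt3bos (423). The others lay 34 bp from the start of Samhd1 (367), in an intron of Gm13610 (330), 805 bp from the start of Mex3a on chromosome 3 (320), 258 bp from the start of Rcor1 on chromosome 12 (300), and in an untranslated region of Egfl7 (266). All 10 held members in each of the 11 libraries. Each also held between 610 (Egfl7) and 1486 (Romo1) of the 41450 proximal joins of any kind in these libraries. Their lead was thus not shown to be particular to short overlaps. By the mean share per library, which weights libraries equally, Nup214 (3.48% ± 1.14) and Dnmt3b (3.35% ± 1.55) stood before Arhgap11a (3.25% ± 1.20), within the spread of each, and the motif near Arhgap21 followed with 2.82% ± 0.617.

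The share of short overlaps, pooled over the DMSO libraries, was also described by motif. Over the 53 motifs with at least 200 proximal joins it ran from 33.2% (77 of 232 joins; 95% Wilson interval 27.4% to 39.5%) at chrX:48594177-48594184 in an intron of Zfp280c to 49.3% (109 of 221; 42.8% to 55.9%) at chr19:3708650-3708657 in an intron of 1810055G02Rik, with a median of 43.2%. The lowest and highest motif were picked on the same values, so the gap between their intervals does not show that motifs differ. The intervals cover counting error only and not the spread between libraries. At the 10 leading motifs the share lay between 40.1% (Gm13610) and 47.7% (near Rcor1).

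Lengths and reading direction differed from motif to motif. An overlap of 4 bases made up 15.1% of members at Nup214 and 13.2% near Arhgap21, against 2.76% at Arhgap11a. The flank of the motif near Arhgap21 holds a GCGA that the bait motif matches, and the join through it recurred:
GCGA near Arhgap21: acaccctgtcccaGCGAgactggccgggcc

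This join occurred in 10 of the 11 DMSO libraries and 20 of the 26, with 26 members in all, 1 bait base and 10 prey bases lost. Prey read to the right in 65.2% of members at Dnmt3b (Wilson interval 60.6% to 69.6%) and 63.0% near Arhgap21 (58.4% to 67.4%) against 40.3% at Romo1 (36.6% to 44.1%). Blunt joins of the same motifs stood at 72.7%, 63.2% and 40.4%, so the reading direction went with the motif in both kinds of join.

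Most distinct joins were seen in a single library. The 16306 members of the DMSO libraries made 10260 distinct joins (same motif, strand, bait end and prey start). Of these, 7535 occurred in a single library and 228 in at least 6, and 52.9% of members belonged to a join seen in 2 or more. The joins found in all 11 numbered 4. Their leader was the TC join at Romo1 printed above (15 members in the DMSO libraries, 28 in the 26), and the CG join at Dnmt3b was another (12 and 24). The remaining 2 were at Dnmt3b as well and read toward the cut, with 2 and 5 shared bases (13 and 11 members), starting 45 and 32 bases before it. The 5-base join is shown with its shared bases in capitals, since its overlap continues the bait past the motif:
CGCGC at Dnmt3b: tgtcccagcgatCGCGCcgcccgccggcca

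The remaining 6 of the 10 most widespread joins occurred in 10 libraries each, with 12 to 15 members. They were a G join at Romo1, the GCGA and CAGC joins near Arhgap21, a CCCA join in an intron of Pip4k2a, and the TC combination again at Nup214 and at Dnmt3b. Of the 10, 5 read toward the cut, among them the G join at Romo1, the CAGC join near Arhgap21 and the CCCA join at Pip4k2a. The TC combination accounted for 3 of the 10.

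The NU7441 libraries ask how the overlaps look when DNA-PKcs is inhibited. Single-base overlaps were a smaller share of members in all 3 pairs, and overlaps of 3, 4 and 5 bases a larger one. With NU7441, 1 shared base made up 33.3%, 36.2% and 26.2% of members in replicates 1, 2 and 3, and 47.0%, 50.1% and 49.7% in their DMSO controls. The groups did not overlap, and the mean difference was -17.0 ± 5.58 percentage points (SD, n = 3 pairs). For 2 bases the values were 39.6%, 29.3% and 31.0% against 36.6%, 32.9% and 28.5%, which overlapped.

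An overlap of 3 bases made up 9.03%, 15.5% and 22.7% of members with NU7441 and 7.57%, 8.11% and 12.1% with DMSO. The difference was positive in each pair, while the groups overlapped. An overlap of 4 bases made up 12.5%, 12.9% and 12.9% against 4.86%, 5.55% and 6.06%, a mean difference of 7.27 ± 0.435 points, and 5 bases 5.56%, 6.03% and 7.27% against 4.00%, 3.41% and 3.66%, a difference of 2.60 ± 1.03. Neither the 4-base nor the 5-base groups overlapped. Without joins in register, 5 bases still differed by 2.81 ± 1.26 points in the same direction in all 3 pairs.

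The mean overlap length was 2.17, 2.23 and 2.44 bases with NU7441 and 1.82, 1.79 and 1.86 with DMSO. The groups did not overlap, and the difference was 0.458 ± 0.118 bases, positive in 3 of 3 pairs. It was 0.395 bases in the 2 pairs of the sixth run and 0.584 in the pair of the third. NU7441 replicates 1 and 2 held 144 and 116 members, replicate 3 held 2653, and their controls 700, 703 and 5595. 

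The share of members among proximal joins moved differently in the 2 runs. It was 13.9%, 21.5% and 50.4% with NU7441 and 29.7%, 40.3% and 47.9% with DMSO, lower in 2 pairs and higher in the third, and the log2 ratio averaged -0.64 ± 0.63 (exact sign-flip test over pairs, p = 0.50, adjusted p = 0.50 over 5 measures). With 3 pairs the test cannot go below 0.25, so no measure of this treatment could pass. Overlaps of at least 6 bases were a larger share of proximal joins by 22.8 ± 13.9 points, and the difference in blunt joins was -8.96 ± 1.75 points, each in the same direction in 3 of 3 pairs and neither tested. As a share of all proximal joins, 1-base overlaps were 4.63%, 7.78% and 13.2% against 14.0%, 20.2% and 23.8%. Overlaps of 3 bases were 1.25%, 3.33% and 11.4% against 2.25%, 3.26% and 5.79%, and those of 5 bases 0.772%, 1.30% and 3.67% against 1.19%, 1.37% and 1.76%, so on this scale 3 bases were lower in replicate 1 and 5 bases in replicates 1 and 2. Overlaps of 4 bases were 1.74%, 2.78% and 6.48% against 1.44%, 2.23% and 2.91%, and Wilson intervals of these overlapped in replicates 1 and 2 (1.10% to 2.73% against 1.03% to 2.01%, and 1.69% to 4.53% against 1.64% to 3.04%) and not in replicate 3 (5.85% to 7.18% against 2.62% to 3.23%).

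Ends and reading direction were set against DMSO over all lengths together. Median bait loss was higher by 0.667 ± 0.577 bases (higher in 2 pairs, equal in 1; exact p = 0.50, adjusted p = 0.50) and median prey loss differed by -1 ± 1 (lower in 2, equal in 1; exact p = 0.50, adjusted p = 0.50). By length, median prey loss of 1-base members was lower in each pair (1.5, 1 and 4 against 4, 5 and 7). It was higher in no pair at 2 and 3 bases, and higher in each at 4 and 5. For 5 bases it was 0.5, 9 and 12 against -3, -3 and 6, and median bait loss 2, 5 and 5 against 0, 0 and 2. NU7441 replicates 1 and 2 held only 8 and 7 of these 5-base members, and the values by length were not tested. The right side was higher by 1.01 ± 0.691 points in 3 of 3 pairs (exact p = 0.25, adjusted p = 0.50). Prey read away from the cut in 91.0%, 95.7% and 94.2% of members against 90.9%, 94.5% and 93.4%. Chromosome 2 held 7.28 ± 2.30 points more of the members in 3 of 3 pairs, which was not tested. Of the leading combinations, the A at bait base -10 made up 1.39%, 2.59% and 1.24% of members with NU7441 against 2.00%, 4.41% and 2.79%, lower in each pair, and GC was higher in each (2.78%, 4.31% and 2.60% against 1.29%, 1.14% and 1.18%). These combinations were picked out after their values were seen.

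CK-666 tests whether blocking Arp2/3, which nucleates branched actin, alters these joins. Members were 28.2%, 27.0%, 31.2%, 35.5%, 19.3% and 30.3% of proximal joins with CK-666 and 26.4%, 33.5%, 34.0%, 35.2%, 28.5% and 35.6% with DMSO in replicates 1 to 6. The groups overlapped, and the mean log2 ratio was -0.19 ± 0.24 (SD, n = 6 pairs; lower in 4; exact sign-flip p = 0.125, adjusted p = 0.312). With 6 pairs the test allows a smallest p of 0.0312. The ratio was -0.11 in the first run (2 pairs) and -0.23 in the second (4 pairs).

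No measure tested passed with CK-666. The mean overlap length was 2.05 ± 0.0773 bases against 2.01 ± 0.0518, a difference of 0.0397 ± 0.0853 (higher in 3 of 6). Median bait loss differed by -0.333 ± 1.03 bases (exact p = 0.75, adjusted p = 0.75), median prey loss by -0.50 ± 1.05 (exact p = 0.50, adjusted p = 0.625) and the right side by 3.15 ± 3.8 points (higher in 4 of 6; exact p = 0.125, adjusted p = 0.312). An overlap of 5 bases was a larger share in 6 of 6 pairs, by 2.55 ± 2.09 points, and by 1.43 ± 1.22 points without joins in register. Prey read away from the cut in a smaller share of members in 6 of 6 pairs, a difference of -4.09 ± 3.48 points (-9.97 to -1.06 in single pairs). These last values were picked out after they were seen and were not tested.

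Wiskostatin and actin R62D-NLS had 2 pairs each and were not tested, since the exact sign-flip test cannot reach the threshold with 2. Members made up 35.6% and 29.6% of proximal joins with wiskostatin against 44.0% and 30.6%, lower in both pairs. They made up 34.2% and 34.5% with actin R62D-NLS against 42.2% and 29.1% with empty vector, lower in 1 pair and higher in the other. The mean overlap length differed by 0.00998 ± 0.0409 bases with wiskostatin and by 0.0141 ± 0.0875 with actin R62D-NLS (SD, n = 2), and 1 shared base made up 44.2% ± 2.61 and 44.5% ± 3.47 of members against 43.3% ± 5.08 and 46.5% ± 0.933. In the third-run pairs of both, median prey loss was 3 bases against 6 in the control, and in the other pairs it was 2 against 2 and 3 against 2.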

How the data were processed

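HTGTS junction tables of 32 libraries, 26 of them from AsiSI-MEFs, were analysed. The authors deposited 1 row per junction in mm10 coordinates, with other values that are genome and read positions (unit: positions in bases). Per the study's methods, reads were aligned to mm10 with Burrows-Wheeler Aligner and filtered by the HTGTS pipeline, which removes duplicates (versions not given in the sources used here). No expression value, ratio or p-value of the authors was used, and the 12 Hi-C samples of the series were not used here. Members were chosen by overlap on the read (1 to 5 bases), so overlap lengths carry no test in the text, though mean overlap length counted as 1 of the 5 measures in the adjustment for CK-666 and NU7441. The members and lists were chosen with earlier results of these data known.

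Each end was placed on the reference relative to its motif, and losses and shared bases were computed in Python 3.11.15 with numpy 2.4.6, pandas 2.3.3 and scipy 1.17.1 (figures: matplotlib 3.10.9). The enumeration of end pairs was tested on simulated joins. Library medians or shares were compared by exact 2-sided sign-flip tests over 11 DMSO libraries or over treated and control pairs, with Benjamini-Hochberg adjustment and a threshold of 0.05. Treated and control libraries were paired by replicate number, and each pair shared a sequencing run. The sources used here state no other link. Named motifs and joins were the 10 with most members or found in most DMSO libraries, and named end combinations the 15 leading ones. Depth was 362 to 18428 junctions per library, and Wilson intervals (95%) cover counting error only. Alternatives covered the distance limit, the motif list, repeated joins, the enumeration window, how shared bases are counted, means for medians, the pairing and leaving out each library.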

Additional observations from a re-analysis of the deposited data

Results flagged for a closer look

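One value stood apart from its group. Overlaps of 1 base made up 55.8% of members in CK-666 replicate 2 (43 of 77, 95% Wilson interval 44.7% to 66.4%), while the other CK-666 libraries lay between 44.9% and 47.1%. Its gap to the nearest library, divided by the range of the 6, was 0.796, above the critical value of 0.625. Among the 18 groups and measures checked, chance flags about 1 in 20. It was the smallest of the 26 libraries, and the part of its size in the value was not tested.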

How the results depend on the processing

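Leaving aside omitted libraries, 496 values under an alternative kept their direction and side of the threshold, or moved by less than the spread between libraries, and 34 moved, 7 reversed and, with no change of direction, 5 newly passed and 1 no longer passed the threshold. With the 97 motifs of highest END-seq signal, bait minus prey loss was -0.0909 bases and the CK-666 difference in bait loss 0.25. Enumeration of losses of 0 to 10 bases gave ratios of 0.777 at 1 base and 9.51 at 5, and 67.5% G or C, and of 0 to 50 bases 2.10 at 4 bases. Ends weighted by blunt losses gave 0.558, 1.70, 2.54, 2.96, 6.24 and 18.2 at 0 to 5 bases. With shared bases counted to neither end, the short minus blunt difference in prey loss was 3.45 (exact test, adjusted p = 0.00163). With means it was -5.72 (adjusted p = 0.00732), that in bases lost in all -2.69 and no longer past the threshold (adjusted p = 0.0781), length 2 minus 1 -2.08 and length 3 minus 1 -9.92 (exact test, adjusted p = 0.0495), and prey loss differed by -6.65 with wiskostatin and 2.18 with actin R62D-NLS. The next alternatives were chosen after seeing the data. Without joins in register, 5 bases made up 3.72% (ratio 3.08). With prey reading away only, 1, 3, 4 and 5 bases made up 51.0%, 8.98%, 5.73% and 3.87%, prey loss differed by 3.09 from blunt joins, bait minus prey loss was -1.36, length 3 minus 1 was 4.77, length 4 minus 1 was 0.136 and no longer past the threshold, and wiskostatin differed by -0.0442 bases in overlap and 0.984 points in right side. With prey losses of at most 20 bases, bait minus prey loss was 1.36. With shared bases left out of the bases lost in all, length 3 minus 1 was -3.77. The wiskostatin difference in right side was also 0.551 under 100 bp, 0.128 with the same bases in both references and 0.0299 without neighbouring motifs. Leaving out single libraries, bait minus prey loss ranged from -0.3 (without DMSO replicate 1) to 0.7 (without NU7441 control replicate 3), and was -0.1 without DMSO replicate 2. Causes were not tested where a value does not show them.

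Without the replicate block, the CK-666 difference in short share had p = 0.219 (adjusted p = 0.501) and the NU7441 difference p = 0.40 (adjusted p = 0.70, exact permutation), and removing the pairing changed no call. Deviations of same-numbered libraries correlated by 0.0425 to 0.21 for CK-666 and 0.0182 to 0.442 for NU7441, so the numbers were not shown to pair libraries beyond the shared run. Depth limits the smallest libraries most, 3 pairs cannot reach the threshold, and the enumeration assumes which ends are available.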
